A study of Mus musculus with 2 samples.

Results

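Histone-modifying enzymes and chromatin remodellers were read out in TUBO cells, a mouse mammary cancer cell line established from a tumour of a BALB/c mouse that carried the rat Her2/neu transgene. The gene set was chosen by symbol, with Kdm5d left out, and holds 75 of the 31017 genes in the count table. There are 24 methyltransferase genes with the subunits of Polycomb repressive complex 2 (PRC2) and 17 genes of the KDM demethylases. The others are 18 deacetylase genes and 16 genes of SWI/SNF subunits and related ATPases. The cells had no treatment and grew as flat cultures on plastic, and bulk poly(A) RNA-seq gave 1 group of 2 libraries with 35453278 and 34098259 counts. The labels give no passage or clone and leave unstated whether each library came from its own culture, so the spread between the libraries may be technical. The mammary epithelial markers Epcam, Cdh1, Krt8, Krt18, Krt7, Elf5 and Erbb2 were all detected. Whether the counts of Erbb2 include reads of the rat transgene was not tested. Of 16 markers of fibroblasts, leukocytes, endothelium and neurons, 0 reached 1 CPM (counts scaled to library size) in both libraries. Summed, these 16 markers came to at most 1.04 CPM for any of the 4 cell types in either library, and Dcn, Ptprc, Cdh5 and Snap25 had no count.

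Methyltransferases place methyl groups on histone lysines, and the lysine decides the use of the mark: H3K4 methylation marks promoters and enhancers, H3K36 and H3K79 methylation transcribed genes, and H3K9, H3K27 and H4K20 methylation silent or compact chromatin. KDM demethylases remove these groups, and histone deacetylases (HDACs and sirtuins) remove acetyl groups, mostly from active chromatin. SWI/SNF complexes use ATP to slide or evict nucleosomes. Several subunits of SWI/SNF and several H3K4 methyltransferases are recurrently mutated in human cancers, breast cancer included.

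Of the 75 genes, 72 were detected, that is at 1 CPM or more in both libraries, against 37.7% of all genes in the table and 50.6% of protein-coding genes. At 50 CPM or more in both libraries were 44 of the 75, compared with 14.7% of all genes and 39.1% of detected genes. The median log2(CPM + 1) over the 75 was 6.34 ± 0.01 (SD, n = 2), compared with 5.18 over all detected genes. These genes are long, with a median of 6678 bases of exon against 4448 for detected genes, and CPM rises with length. Divided by exon length, the gap in medians was smaller, at 9.42 ± 0.132 CPM per kilobase (kb) over the 75 and 7.48 ± 0.0277 over all detected genes. On this scale 46 of the 75 lay above the median detected gene. All values below that compare one gene with another are CPM per kb of exon, given for replicates 1 and 2 in that order.

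**Figure D1:**
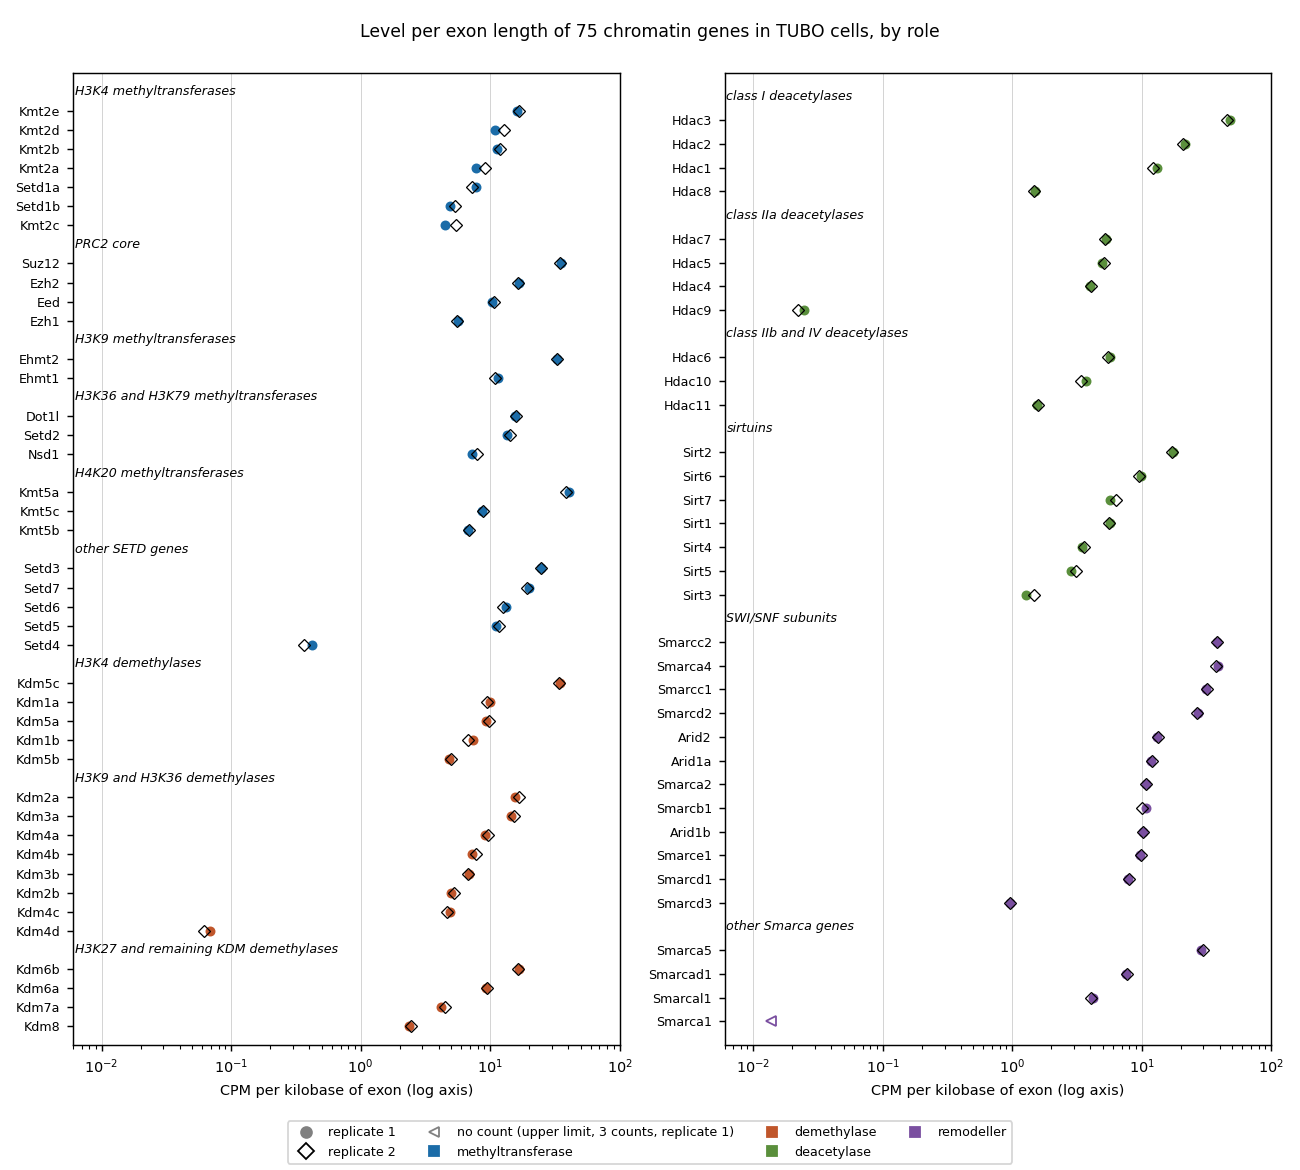
Level of each of the 75 genes in CPM per kb of exon on a log axis, grouped by role. Filled circles are replicate 1 and open diamonds replicate 2. The triangle, labelled as upper limit, marks the floor of 3 counts in replicate 1 for Smarca1, which had no count. Most genes lie between 1 and 50 CPM per kb, and Setd4, Kdm4d, Hdac9 and Smarca1 stand apart at the low end.

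Detection failed for 3 genes, each with close relatives that were expressed. Smarca1, the X-linked ATPase of ISWI remodellers, had 0 counts in both libraries, where the floor of 3 counts stands at 0.0842 and 0.0885 CPM in the 2 libraries and the upper end of the 95% exact interval at 0.104 and 0.108. Its paralog Smarca5, the other ISWI ATPase, had 7985 and 7855 counts and stood at 28.8 and 29.8 CPM per kb. Per length, and set against the floor of 3 counts per library, Smarca5 was 2093-fold higher in replicate 1 and 2059.7-fold in replicate 2. The floor lies below the upper end of the interval, so these folds are not lower bounds. Hdac9, a class IIa deacetylase best known from muscle, heart and brain, had 13 and 11 counts (95% exact interval 0.195 to 0.627 and 0.161 to 0.577 on the CPM scale). Its relative Hdac7 had 1279 and 1185 counts. Kdm4d, an H3K9 demethylase known chiefly from testis, had 7 and 6 counts, while Kdm4a, Kdm4b and Kdm4c each had over 900 in both libraries. These intervals and floors cover counting error only. Of the 3 undetected genes, Kdm4d shares 10.2% of its 50-base windows with transcripts of other genes, chiefly its neighbour Kdm4dl.

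The upstream sequences of an ISWI pair and a class IIa pair, each of an undetected and an expressed gene, differ in CpG dinucleotides, the sites of DNA methylation. They are shown here 5′ to 3′ up to the RefSeq start or the first exonic base in GENCODE M21, on build GRCm38.p6, with every CG in capitals. The Smarca1 and Hdac7 windows hold no annotated exon but lie inside the GENCODE span of their genes, which reach to 47892974 and 97844502, so longer annotated transcripts start before them. The Smarca5 and Hdac9 windows end where the annotated gene begins.
Smarca1 (chrX:47892614-47892863, minus strand): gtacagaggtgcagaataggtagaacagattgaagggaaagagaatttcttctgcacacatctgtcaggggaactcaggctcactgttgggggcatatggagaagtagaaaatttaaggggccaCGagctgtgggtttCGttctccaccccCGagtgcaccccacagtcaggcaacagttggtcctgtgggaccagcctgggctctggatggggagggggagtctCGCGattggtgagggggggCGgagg
Smarca5 (chr8:80739498-80739709, minus strand): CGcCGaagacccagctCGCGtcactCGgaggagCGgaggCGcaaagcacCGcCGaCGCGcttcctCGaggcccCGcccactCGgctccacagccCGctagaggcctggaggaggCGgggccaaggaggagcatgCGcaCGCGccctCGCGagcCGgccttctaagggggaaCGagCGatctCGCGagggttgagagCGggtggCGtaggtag
Hdac9 (chr12:34917096-34917345, minus strand, the first of 2 listed starts): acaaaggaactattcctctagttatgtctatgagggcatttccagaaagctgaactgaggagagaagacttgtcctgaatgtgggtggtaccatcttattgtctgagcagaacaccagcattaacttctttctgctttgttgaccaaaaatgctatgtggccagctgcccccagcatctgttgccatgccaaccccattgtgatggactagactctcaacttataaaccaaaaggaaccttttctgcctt
Hdac7 (chr15:97831768-97832017, minus strand, the third of 4 listed starts): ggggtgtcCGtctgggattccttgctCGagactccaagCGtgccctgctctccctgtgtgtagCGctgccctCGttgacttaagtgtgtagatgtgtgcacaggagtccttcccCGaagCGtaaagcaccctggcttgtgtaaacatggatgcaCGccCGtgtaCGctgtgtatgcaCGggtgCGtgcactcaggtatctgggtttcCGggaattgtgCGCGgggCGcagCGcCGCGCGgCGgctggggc

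The Smarca1 window holds 6 CG and the shorter Smarca5 window 28, while the Hdac9 window holds 0 and the Hdac7 window 21. The start of Hdac7 was picked for display after its values were seen. RefSeq entries were found for 61 of the 75 genes, and for the counts that follow the start with most CG was taken. CG (the same letters on either strand) occurred 10 times or more in the 250 bases before the start of 53 of 58 detected members, with a median of 23. Among the detected protein-coding genes with an entry the share was 81.4% and the median 18, and among those with no count 18.0% and 2. The 3 undetected members had 2 (Hdac9), 6 (Smarca1) and 14 (Kdm4d) CG. Setd5 (0 CG) and Smarcd2 (4 CG) were expressed with as few CG as the undetected members, each by its 1 listed start. Whether these starts are the ones used in TUBO cells was not tested. CG occurred at least once in 93.2% of the protein-coding promoters of this length.

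The SWI/SNF genes among the 75 were detected without exception, 12 of 12, at a median of 11.4 ± 0.124 CPM per kb. The ATPase gene Smarca4 (BRG1) had 8920 and 8188 counts and stood at 38.6 and 37.3 CPM per kb. The alternative ATPase gene Smarca2 (BRM) stood at 10.7 and 10.9. Smarca4 therefore made up 77.8 ± 0.597% of the ATPase signal per length and was 3.51 ± 0.121 times as high. With the longest annotated transcript as the length, the log2 ratio was 0.56 in place of 1.81, so the size of this difference depends on which exons of Smarca2 are used.

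The scaffold genes Smarcc2 (7541 and 7142 counts, 38.1 and 37.9 CPM per kb) and Smarcc1 (31.4 and 32.1) were nearly even. Among the 3 alternative Smarcd subunits, Smarcd2 held 75.3 ± 0.531% of the summed level, at 27.3 and 26.5 CPM per kb. Smarcd1 followed at 7.82 and 7.92. Smarcd3, a subunit known from heart and muscle, was the lowest SWI/SNF member with 176 and 168 counts (0.964 and 0.967 CPM per kb). Smarcd2 exceeded Smarcd3 by 27.8 ± 0.615-fold. Of the windows of Smarcd3, 44.0% are shared with other transcripts, mostly Chpf2 on the opposite strand, so its level is uncertain. In all, 13 of the 75 genes share over 10% of their windows in this way, among them Smarca5 (28.2%), Kdm3b (24.1%), Hdac4 (21.6%) and Setd3 (16.4%), and their levels carry the same uncertainty. The core genes Smarcb1 (10.8 and 10.1 CPM per kb) and Smarce1 (9.69 and 9.83) were close to each other.

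The ARID subunits assign the complex to its canonical form (Arid1a or Arid1b) or to the polybromo form (Arid2). Their 3 genes were balanced, at 11.7 and 12.0 CPM per kb for Arid1a, 10.2 and 10.2 for Arid1b and 13.2 and 13.3 for Arid2. None held more than 37.5 ± 0.107% of their sum. In a list of 16 further SWI/SNF subunit genes 13 were detected, led per length by Ss18 (19.4 ± 1.22 CPM per kb) and Brd7 (15.04 ± 0.289). The median over these 16 was 6.67 ± 0.0212 CPM per kb, below that of the members outside SWI/SNF (7.87 ± 0.174). Below 1 CPM in at least 1 library were Actl6b (0 counts), Dpf1 (19 and 35 counts) and Dpf3 (25 and 14 counts), subunits best known from neurons or heart, while their relatives Actl6a (51.3 ± 1.82 CPM) and Dpf2 (79.2 ± 2.72 CPM) were detected. The remaining SMARCA-named genes were Smarcad1 (7.59 and 7.69 CPM per kb) and the annealing helicase gene Smarcal1 (4.22 and 4.06).

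**Figure D2:**
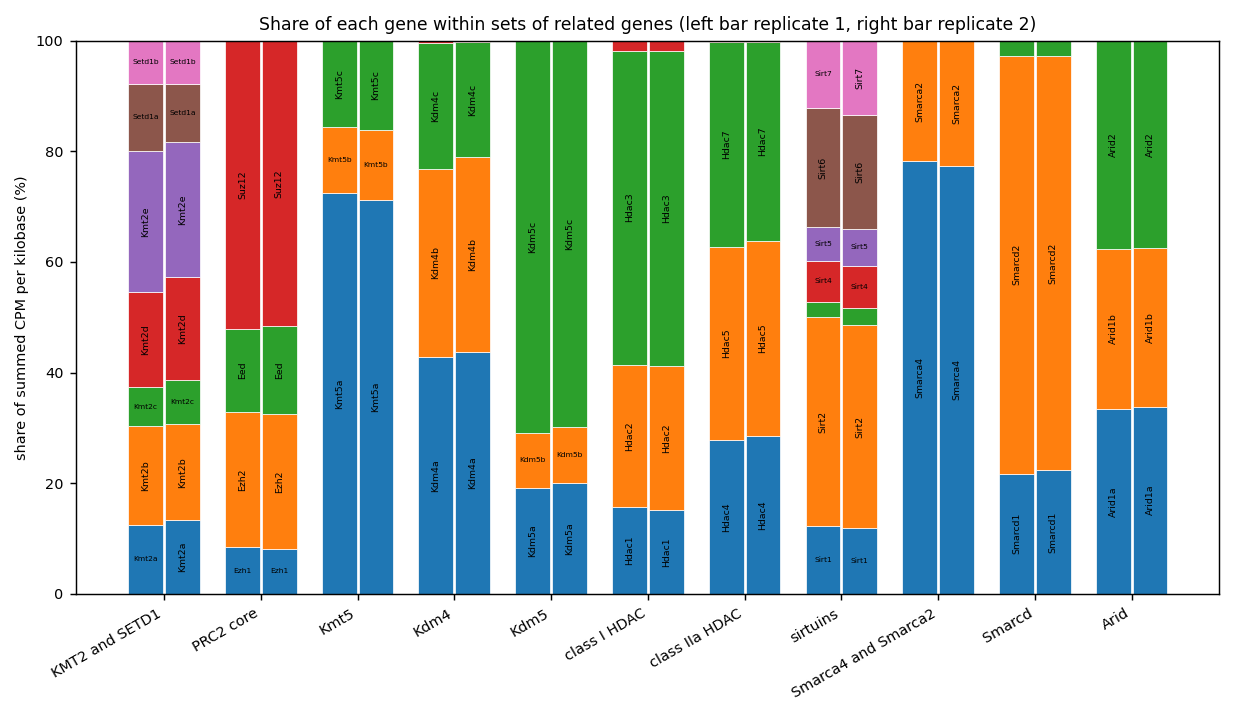
Share of each gene in the summed CPM per kb of its set, in percent, with the left bar of each pair for replicate 1 and the right bar for replicate 2. Smarca4, Smarcd2, Kmt5a, Kdm5c, Hdac3 and Suz12 each hold over 50% of their set in both libraries, whereas the ARID genes are balanced; slices under 5% are not labelled and are Sirt3, Hdac8, Smarcd3, Kdm4d and Hdac9.

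All 7 genes of the H3K4 methyltransferase family were detected, at a median of 8.49 ± 0.892 CPM per kb. Kmt2e, a family member without clear enzymatic activity, was highest with 6015 and 5928 counts (16.2 and 16.7 CPM per kb). Next came Kmt2d, an enhancer methyltransferase, with 7794 and 8653 counts at 11.0 and 12.8, and the promoter enzyme Kmt2b at 11.4 and 12.0. Kmt2a (MLL1; 4668 and 5155 counts) stood at 7.86 and 9.12, Setd1a at 7.75 and 7.27 and Setd1b at 4.92 and 5.33. The lowest was Kmt2c (MLL3), the partner paralog of Kmt2d, with 3223 and 3778 counts (4.46 and 5.49 CPM per kb). Kmt2d exceeded Kmt2c by 2.40 ± 0.0921-fold, but by 0.83 on the log2 scale (under 2-fold) with the longest transcript as length. Setd1a shares 51.2% of its windows with another annotated transcript, Gm49388, which overlaps it on the same strand, so its level is uncertain. Listed core and partner genes of these complexes were all detected, 11 of 11, led by Hcfc1 (30.6 ± 0.0840 CPM per kb) and Dpy30 (29.6 ± 0.579).

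PRC2, the H3K27 methyltransferase complex, had all 4 core genes detected. Suz12, a scaffold subunit, was highest with 6253 and 5865 counts (35.5 and 34.97 CPM per kb). The catalytic subunit gene Ezh2 (chromosome 6, 47530139 to 47595341, GRCm38) stood at 16.6 and 16.5 and the H3K27me3 reader Eed at 10.3 and 10.8. The alternative catalytic subunit Ezh1, which is typical of resting cells, was lowest with 1510 and 1393 counts (5.69 and 5.52). Ezh2 exceeded Ezh1 by 2.95 ± 0.0445-fold, a log2 ratio of 1.56 ± 0.02. All 8 measured PRC2 partner genes were detected, with the histone chaperone Rbbp7 far above the rest at 75.2 ± 1.03 CPM per kb and Rbbp4 next at 11.5 ± 0.224. The 16 genes of Polycomb repressive complex 1 were detected as well, led by Bmi1 (38.0 ± 0.410) and Phc2 (19.8 ± 0.517).

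The other methyltransferases were led by Kmt5a (SET8), which places the first methyl group on H4K20, with 7643 and 6956 counts (40.4 and 38.6 CPM per kb). It held 71.8 ± 0.895% of the summed Kmt5 level. Kmt5c (8.67 and 8.76) and Kmt5b (3541 and 3465 counts, 6.73 and 6.93), which add further methyl groups, were closer to each other, and their order reversed when the longest transcript was taken as length. Of the paired H3K9 methyltransferases, Ehmt2 (G9a; 6391 and 6104 counts, 32.7 and 32.8 CPM per kb) exceeded Ehmt1 (GLP; 3343 and 3004 counts, 11.6 and 10.9) by 2.92 ± 0.126-fold. The H3K79 enzyme Dot1l (4858 and 4665 counts, 15.7 and 15.8) and the H3K36 enzyme Setd2 (5147 and 5229 counts, 13.4 and 14.3) were similar, with Nsd1 lower (4503 and 4741 counts, 7.23 and 7.996). Among the remaining SETD genes, the actin methyltransferase gene Setd3 was highest with 5343 and 5039 counts (24.8 and 24.6 CPM per kb). Setd7 stood at 19.9 and 19.4, Setd6 at 13.3 and 12.6 and Setd5 (7273 and 7341 counts) at 11.1 and 11.8. Setd4 was the lowest detected gene of all 72, with 81 and 67 counts (0.422 and 0.367). Of 12 further SET-domain genes 11 were detected, led by Nsd2 (18.5 ± 0.0734) and Setdb1 (11.7 ± 0.364), and the muscle gene Smyd1 had no count.

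Demethylase genes were lower per length than methyltransferase genes, with medians of 7.56 ± 0.331 and 11.6 ± 0.449 CPM per kb. On the log2(CPM per kb + 1) scale the medians differed by 0.56 in replicate 1 and 0.55 in replicate 2 (mean 0.55, SD 0.0041, n = 2). Differences between groups of genes carry no test, since genes are not replicates and there are 2 libraries. Kdm5c, an X-linked H3K4 demethylase gene that escapes X inactivation, led the demethylases with 8738 and 8267 counts (34.5 and 34.3 CPM per kb). It held 70.4 ± 0.739% of the summed level of Kdm5a, Kdm5b and Kdm5c and exceeded Kdm5a (9.33 and 9.78) by 3.60 ± 0.135-fold. Kdm5b was lowest of the H3K4 group with 2840 and 2810 counts (4.81 and 5.005). The flavin-dependent Kdm1a (LSD1; 10.0 and 9.46) lay 1.38 ± 0.0221-fold above Kdm1b (7.33 and 6.77).

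In the group that acts on H3K9 and H3K36, Kdm2a was highest with 8037 and 8150 counts (15.6 and 16.6 CPM per kb), 3.16 ± 0.0254-fold above Kdm2b (4.97 and 5.24), a CpG island reader of a Polycomb complex. Kdm3a (14.6 and 15.3) exceeded Kdm3b (6.88 and 6.75) by 2.19 ± 0.104-fold, but by under 2-fold with the longest transcript as length (log2 ratio 0.75). Kdm4a (9.19 and 9.68), Kdm4b (7.31 and 7.79) and Kdm4c (4.90 and 4.61) formed a gentle order above the undetected Kdm4d. Of the H3K27 demethylases, the inducible Kdm6b (4112 and 3869 counts, 16.6 and 16.4) stood 1.75 ± 0.0331-fold above the X-linked Kdm6a (9.37 and 9.52). The remaining KDM genes, Kdm7a (4.15 and 4.47) and Kdm8 (200 and 199 counts, 2.35 and 2.46), were lower. Outside the KDM names, 7 of 7 listed JmjC-family genes were detected, led by Hr, the hairless corepressor gene (37.0 ± 0.601), and Phf2 (19.2 ± 0.734).

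Deacetylase genes were the lowest of the 4 classes, at medians of 5.15 and 5.12 CPM per kb in the 2 libraries, with a single gene far above the others. Hdac3 (chromosome 18, 37935844 to 37955016), the enzyme of nuclear receptor corepressor complexes, had 6897 and 6290 counts and the highest level per length of all 75 genes, 47.7 and 45.7 CPM per kb, above 92.8% of detected genes. Hdac2 stood at 21.7 and 20.9 and Hdac1, its partner in the Sin3, NuRD and CoREST complexes, at 13.2 and 12.1. Hdac8 was the lowest class I gene with 257 and 243 counts (1.49 and 1.48), 31.5 ± 0.803-fold below Hdac3. Hdac1 shares 35.5% of its windows with other transcripts, chiefly Gm10093, to which 446 and 337 counts were assigned against 1619 and 1419 for Hdac1. The treatment of reads that match both is unknown here, so the ratio of Hdac2 to Hdac1 (1.68 ± 0.0539) is uncertain.

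Class IIa deacetylases, signal-responsive proteins that shuttle between nucleus and cytoplasm, had a lower median than class I. The classes overlapped, as Hdac8 of class I (1.49 and 1.48 CPM per kb) lay below Hdac7, Hdac5 and Hdac4. The medians differed by 1.715 and 1.608 on the log2(CPM per kb + 1) scale in the 2 libraries, a mean of 1.66 ± 0.08. Within the class, Hdac7 (5.31 and 5.17 CPM per kb), Hdac5 (4.98 and 5.07) and Hdac4 (3.98 and 4.09) were near each other and Hdac9 was at 0.16% of their sum. Hdac7 exceeded Hdac9 by 224 ± 14.3-fold, a ratio that rests on 13 and 11 counts of Hdac9. The tubulin deacetylase gene Hdac6 had 1170 and 1089 counts (5.64 and 5.52), followed by the polyamine deacetylase gene Hdac10 (3.73 and 3.39) and the class IV gene Hdac11 with 213 and 208 counts (1.55 and 1.59).

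All 7 sirtuins, NAD-dependent deacylases, were detected. The mainly cytoplasmic Sirt2 was highest with 3146 and 2935 counts (17.5 and 17.2 CPM per kb) and held 37.2 ± 0.784% of the sirtuin sum. The nuclear sirtuins followed, Sirt6 at 9.94 and 9.60, Sirt7 at 5.66 and 6.33 and Sirt1 at 5.66 and 5.56. Sirt7 and Sirt1 were level in replicate 1. The mitochondrial sirtuins were lowest, with Sirt4 at 3.45 and 3.57, Sirt5 at 2.85 and 3.14 and Sirt3 at 273 and 297 counts (1.28 and 1.47). All 22 listed subunits of deacetylase corepressors were detected, at a median of 18.3 ± 0.228 CPM per kb. They were led by the NuRD genes Mta2 (55.7 ± 2.30) and Mbd3 (49.3 ± 0.998). Their median was above that of all 18 deacetylase genes (5.135 ± 0.0165) but near that of the 4 class I genes (16.96 ± 0.6435). The opposing lysine acetyltransferases were all detected too, 10 of 10, at a median of 15.9 ± 0.168, led by Hat1 (45.9 ± 0.628) and Kat7 (24.5 ± 0.325). Over all 102 listed chromatin genes outside the set of 75, 98 were detected and the median was 11.2 ± 0.0740 CPM per kb.

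Related genes were set side by side in 27 pairs. These were chosen with earlier results of these data known, so counts of unequal pairs describe this choice of pairs only. In 13 pairs the levels per length were over 2-fold apart in the same direction in both libraries, and all 27 pairs kept their order in both. The SD of the log2 ratio between the libraries was at most 0.15 over the 27 pairs. Unequal pairs included both catalytic pairs of silencing complexes (Ezh2 over Ezh1, Ehmt2 over Ehmt1), the SWI/SNF ATPases and the Smarcd subunits, whereas Arid1a and Arid1b (1.16 ± 0.0205-fold), Smarcc2 and Smarcc1 (1.20 ± 0.0230-fold) and Hdac5 and Hdac4 (1.25 ± 0.00691-fold) were the most even. The length used mattered: of the 13 pairs, 10 stayed 2-fold apart with the longest transcript as length and 9 with CPM not divided by length.

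**Figure D3:**
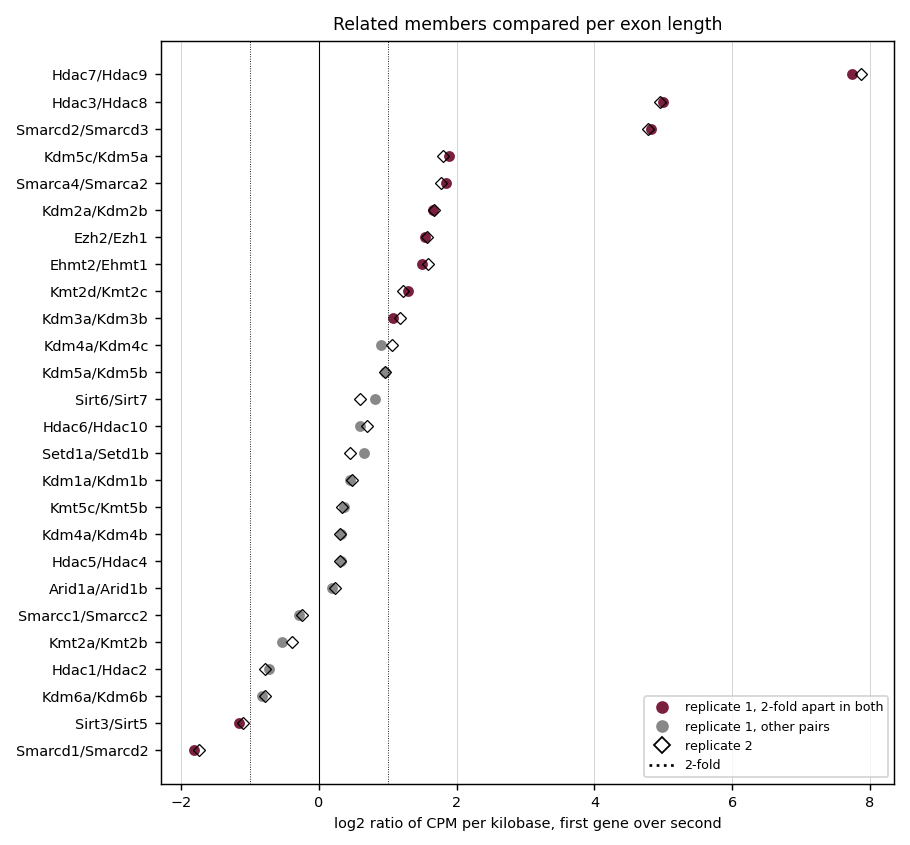
Log2 ratio of CPM per kb, first gene over second, for 26 of the 27 pairs, with filled circles for replicate 1 (dark red where 2-fold apart in both libraries) and open diamonds for replicate 2; dotted lines mark 2-fold. Smarca5/Smarca1 is left out because Smarca1 had no count; Hdac7/Hdac9, Hdac3/Hdac8 and Smarcd2/Smarcd3 lie far to the right.

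The 2 libraries gave nearly the same level for most of these genes. Over the 72 detected members the median coefficient of variation of CPM was 2.51%, and the highest was 14.7%, for Kmt2c. An exact binomial test of each gene between the libraries, two-sided, covers counting error only, and its p-values were adjusted by Benjamini-Hochberg over the 13336 genes with enough counts, 73 of the members among them. At an adjusted p under 0.05 it called 7 members, all higher in replicate 2, where 3.67% of all tested genes were called higher and 4.46% lower (8.13% in either direction). The median log2 ratio of replicate 2 to replicate 1 was 0.01 over the tested members and -0.0017 over all tested genes. Above 0 were 41 of the 73 members and 6580 of the 13336 tested genes.

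The 3 clearest differences were the large H3K4 methyltransferase genes of the KMT2 family. Kmt2c was at 90.4 CPM in replicate 1 and 111 CPM in replicate 2 (log2 ratio 0.30, exact binomial test, adjusted p = 8.74e-16), Kmt2d at 219 and 255 CPM (0.22, adjusted p = 1.80e-20) and Kmt2a at 131 and 152 CPM (0.21, adjusted p = 2.82e-11). Kmt2b, at 109 and 115 CPM (0.07, exact binomial test, adjusted p = 0.165), was not called, nor was Kmt2e (169 and 175 CPM). The other called genes were the H3K36 methyltransferase gene Nsd1 (126 and 140 CPM, 0.15), Setd2 (144 and 154 CPM, 0.09), Kdm2a (225 and 240 CPM, 0.09) and Setd5 (204 and 216 CPM, 0.09). No condition separates the libraries.

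The 7 called genes had 10754 to 20291 bases of exon, with a median of 17483, against 6284 for the tested members that were not called. They were also deeply counted, with at least 7001 counts each over the 2 libraries. Of all members, 20 had at least 10754 bases of exon, and 14 of these also had at least 7001 counts. Length and depth were therefore not separated in this contrast. Among all tested genes at 10 CPM or more, the tenth with the longest exons had a median log2 ratio of 0.04, compared with -0.03 for the tenth around 4542 bases. The bin of the shortest genes was at -0.0028 and the 2 bins next to the longest were at 0.0028 and -0.0012, so the medians did not rise steadily with length. With the trend on length removed, Kmt2c (0.23, exact binomial test, adjusted p = 1.17e-08), Kmt2d (0.15, 6.54e-09) and Kmt2a (0.16, 6.69e-06) were still called higher, while Nsd1, Setd2, Kdm2a and Setd5 were not and Sirt7 was (0.18, adjusted p = 0.0498). Under this setting 3.37% of tested genes were called higher and 3.25% lower (6.63% in either direction). The part of length in the calls of single genes was not tested further. With edgeR's exact test, which adds the dispersion estimated from these same libraries, Kmt2c alone stayed called (adjusted p = 0.0284), where 0.142% of tested genes were called higher.

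No member was called lower by the exact binomial test with TMM scaling, where 7 were lower and 14 higher at an unadjusted p under 0.05, against 10.6% and 9.3% of all tested genes. By edgeR's exact test 0 of all tested genes were called lower, and at an unadjusted p under 0.05 there were 0 members lower and 4 higher, against 1.66% and 3.85% of tested genes. Calls of lower members depended on the scaling. With total counts, Kmt5a (-0.08), Smarcb1 (-0.12), Smarca4 (-0.07) and Hdac3 (-0.08) were called lower and Setd2 was lost, which gave 6 higher and 4 lower. With DESeq2 size factors Kmt5a was called lower (-0.07). Over all tested genes the calls were 489 higher and 595 lower with TMM, 374 and 921 with total counts, and 434 and 716 with DESeq2 size factors.

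**Figure D4:**
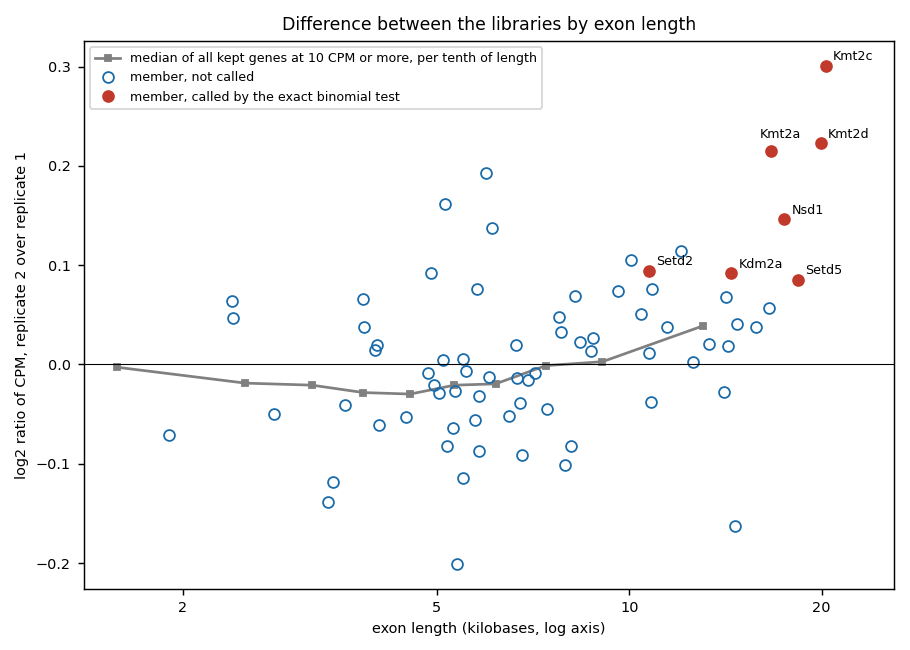
Log2 ratio of CPM, replicate 2 over replicate 1, against exon length in kb on a log axis for the 73 tested members; filled red circles were called by the exact binomial test, open blue circles were not, and the grey line joins the medians of all tested genes at 10 CPM or more in 10 bins of length. The 7 called genes all have over 10 kb of exon and log2 ratios above the 0.04 of the last bin. The grey line ends at 13042 bases, and of the 7 only Setd2 is shorter than that.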

How the data were processed

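Per the labels' protocols, 2 TUBO libraries were made from column-purified, DNase-treated RNA with a kit for stranded mRNA. The authors deposited raw counts per gene symbol. Named in the submitters' processing notes, without role or order, are the aligner STAR 2.7.9a, the counter featureCounts and the build mm10. The sources used here give no annotation release, strand setting or handling of multi-mapped reads, so genes that overlap or share sequence are uncertain.

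Members were the symbols that fit the naming rule, except Kdm5d, which the rule leaves out. Members, lists and pairs were chosen with earlier results of these data known. Every member is given; counts are printed for the highest and lowest of each role group, called members and those under 1 CPM, and the remaining pair members are given in CPM per kb only, a departure from the rule fixed for named genes.

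CPM used TMM factors (1.005 and 0.995 from edgeR 4.0.16 in R 4.3.3) and were divided by the union of exons in GENCODE M21 (GRCm38), where 98.1% of symbols had a single match. filterByExpr kept 13336 genes for the exact binomial tests. Each log2 ratio between libraries used a prior of 0.5 counts. The test was run on simulated counts first. P-values measure only the difference between these 2 libraries. Alternatives were other scalings (DESeq2 1.42.0 size factors, total counts, upper quartile), detection minimums, pseudocounts, lengths, no filter, edgeR's exact test and each library left out. Removal of the length trend (lowess, span 0.5) and detected members only were added after seeing the data. Windows of 50 bases were matched on both strands of all other transcripts. Promoter sequences are from RefSeq (GRCm38.p6). No sequence of a protein was used here. One of the listed chromatin genes that was called between the libraries is not reported here.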

Additional observations from a re-analysis of the deposited data

How the results depend on the processing

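The counts of members detected (70 to 72) and at 50 CPM or more (44 to 46) varied little under every scaling, detection minimum and library tried, and the number of pairs 2-fold apart was 11 to 14. No paired analysis was possible because the design has 1 group. Members called higher in replicate 2 fell from 7 to 1 with edgeR's exact test and to 4 with the length trend removed, and the cause was not tested. The latter also tested 13188 genes in place of 13336 and added Sirt7. Members called lower rose from 0 to 4 with total counts and 1 with DESeq2 size factors. Over all genes, calls fell from 1084 to 19 with edgeR's exact test. Sizes of differences between medians depended on the scale, while none changed sign. The member median of 6.34 became 6.32 and 6.41 with pseudocounts of 0.1 and 5, and 6.44 over detected members. The 12 SWI/SNF members minus other members (0.48, without either replicate 0.47 to 0.49) became 0.52 and 0.35 with those pseudocounts. This difference was 0.60 with the longest transcript as length, 1.08 with CPM not divided by length (1.085) and 0.37 over detected members. Methyltransferases minus demethylases (0.55, without either replicate 0.55 to 0.56) became 0.61, 0.40, 0.41, 1.12 and 0.42 under the same settings. Class I minus class IIa (1.66, without either replicate 1.61 to 1.72) became 1.84 and 1.18 with the pseudocounts, 0.69 with CPM not divided by length and 1.53 over detected members. Of all 27 pairs, 1 changed order with the longest transcript as length and 6 with CPM not divided by length, none of them among the 13 pairs 2-fold apart. Tests between the libraries could not be run with a library left out. Depth limits Smarca1, Kdm4d and Hdac9, where 0 to 13 counts were found.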

Other observations

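Whether members lie closer together than other genes was not tested. On chromosome 15 (GRCm38), 4 of the 75 genes start and end between the first base of Arid2 (96287518) and the last base of Smarcd1 (99713991): Arid2, Hdac7 (97792664 to 97844502), Kmt2d (98831669 to 98871204) and Smarcd1 (99702129 to 99713991). Their levels were 13.3 ± 0.0780, 5.24 ± 0.0986, 11.9 ± 1.29 and 7.87 ± 0.0748 CPM per kb. On the X chromosome lie 5 members, and these include both the highest demethylase gene, Kdm5c, and the gene without a count, Smarca1. The other 3 are Kdm6a, Hdac6 and Hdac8 (1.49 ± 0.00659 CPM per kb).

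Of the 102 listed chromatin genes outside the set of 75, 5 were called higher and 4 lower in replicate 2 by the exact binomial test with Benjamini-Hochberg adjustment. Over all tested genes 3.67% were called higher and 4.46% lower, so these counts lie near the background. Among the higher ones were the NuRD ATPase gene Chd4 (log2 ratio 0.14), the H3K36 methyltransferase gene Ash1l (0.16), and the acetyltransferase genes Crebbp (0.08) and Ep300 (0.08). The lower ones were Ss18 (-0.13), Gatad2a (-0.11), Mbd2 (-0.10) and Mta2 (-0.08). The scalings that moved calls among the members were not applied to these genes one by one.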
